A study of Homo sapiens with 6 samples.

Results

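The eIF4F cap-binding factors and the 4E-binding proteins are the genes EIF4E, EIF4E2, EIF4A1, EIF4A2, EIF4B, EIF4G1, EIF4G2, EIF4G3, EIF4EBP1 and EIF4EBP2. They were examined in TE-1, a cell line from a human oesophageal squamous cell carcinoma, with and without a stable knockdown of EIF3C. The genes were chosen by name. Probe sets whose platform annotation has 1 gene symbol were used, and each gene was represented by its probe set with the highest mean over the 6 arrays. Of the 10 genes, 9 had such a probe set and all 9 of these were tested. They held 39 of the 44988 probe sets with 1 symbol and were 9 of 18132 genes, of which 13599 passed the filter on low signals. EIF4G3 was not analysed here.

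The control samples were parental TE-1 cells and the EIF3C knockdown samples came from 1 clone of the same line, with 3 arrays labelled as biological replicates in each group. The labels give no treatment other than the knockdown, no method of knockdown, no other clone and no control construct, so the knockdown and the choice of the clone cannot be told apart. Nothing in the labels says that replicates came from separate cultures, and p-values then reflect the spread of these arrays alone, part or all of which may be technical. In bulk RNA, fewer cells with a transcript and less of it per cell cannot be told apart either.

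The complex eIF4F recruits ribosomes to the capped end of mRNA. Its subunit eIF4E holds the cap, eIF4G is a scaffold that binds eIF4E, eIF4A and poly(A)-binding protein and also contacts eIF3 on the small ribosomal subunit, and eIF4A is an RNA helicase helped by eIF4B. The 4E-binding proteins occupy the site on eIF4E that eIF4G uses, and mTORC1 releases them from eIF4E by phosphorylation. EIF3C, the targeted gene, encodes a subunit of eIF3.

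Array medians lay between 6.09 and 6.11 on the log2 scale, and the number of arrays limits the precision. Correlations over human probe sets were 0.998 within groups and 0.982 to 0.985 between them. The target was lower in every knockdown sample: 3 bright probe sets shared by EIF3C and its near-identical copy EIF3CL stood at 21.5% to 22.6% of the control level. On the 85 probe sets for non-human controls, knockdown minus control ran from -0.22 to 0.20, a range used below as a scale for small differences. Of 8 squamous epithelial markers chosen, 5 had a probe set with 1 symbol, and KRT17, KRT6A and TP63 did not. Among those measured, CDH1, EPCAM and DSG3 were at 11.21, 11.89 and 8.14 in control. The basal keratin genes KRT5 and KRT14 were at 5.91 and 5.85, below the array medians. Of 5 fibroblast, 4 leukocyte and 5 endothelial markers, PDGFRB alone, at 6.21, exceeded those medians in control. Some markers moved with the knockdown: CDH1 and EPCAM rose by 0.23 and 0.21, DSG3 changed by -0.70, and the endothelial marker CDH5 rose by 0.46 to 6.31 (limma, adjusted p = 2.13e-05), above the medians. The endothelial marker KDR and the fibroblast marker COL1A1 changed by -0.26 and -0.21 and were called lower. The part of these shifts in the results below was not tested.

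In the knockdown cells, transcripts of the cap-binding protein EIF4E rose and those of its repressor EIF4EBP1 fell, and the helicase gene EIF4A1 rose while its cofactor gene EIF4B fell. The scaffold gene EIF4G1 fell slightly, and its relative EIF4G2 was not called. On the brightest probe sets 4 genes were called higher, namely EIF4E, EIF4E2, EIF4A1 and EIF4EBP2, against a background of 32.4% of all genes tested. Another 4 were called lower, namely EIF4EBP1, EIF4B, EIF4G1 and EIF4A2, against 34.1%. A call is an adjusted p under 0.05 in limma with Benjamini-Hochberg adjustment over all 13599 genes, and 66.5% of genes were called in either direction. Calls alone therefore do not set these genes apart. The median log2 fold change was 0.02 over the 9 genes and -0.03 over all genes tested, and the median size was 0.31 against 0.23. None of the 9 changed by 2-fold or more, which 4.82% of genes did. With other probe sets the calls of EIF4EBP2 and EIF4A2 turned direction, as given with each gene.

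**Figure D1:**
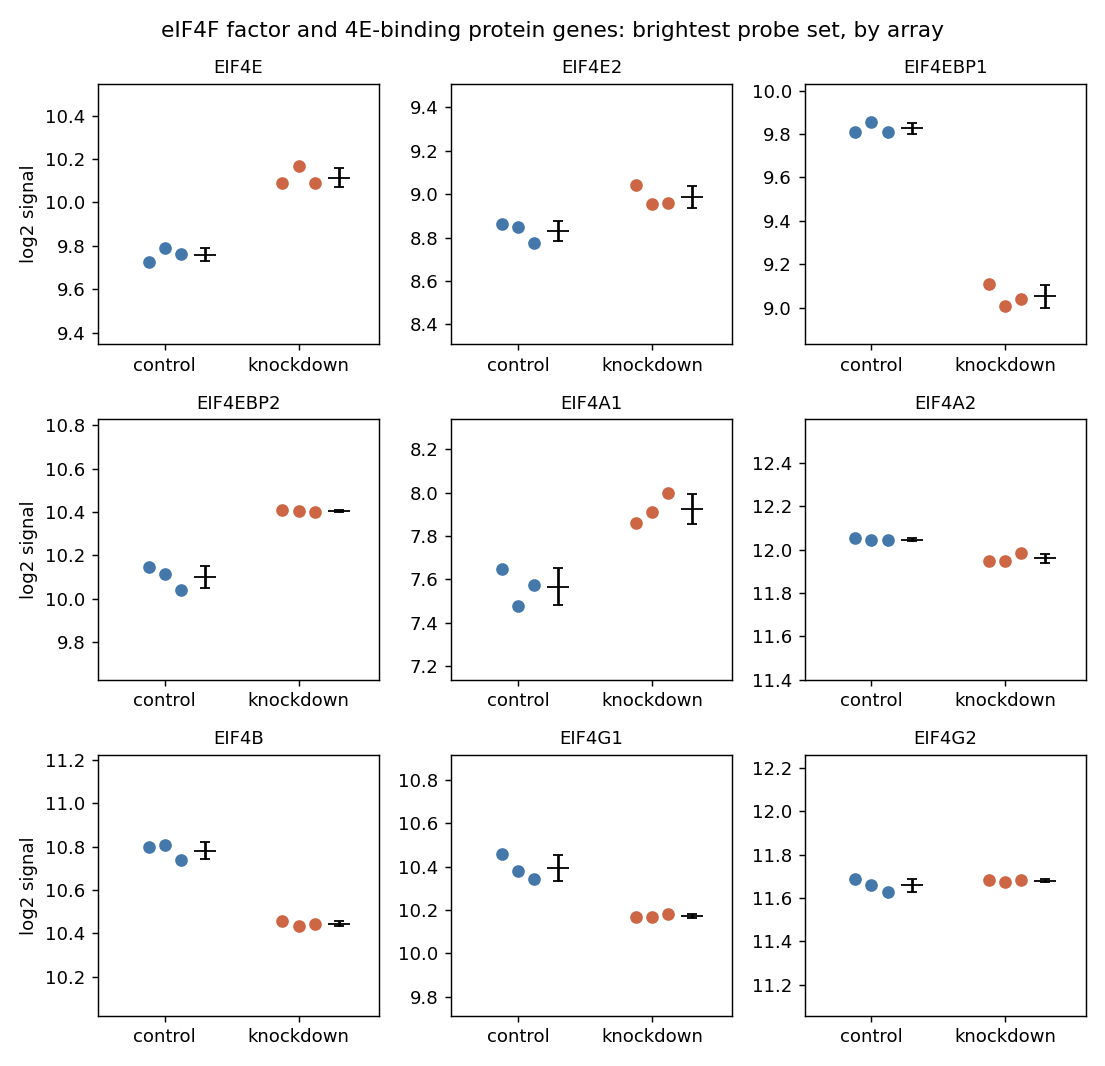
Log2 signal (vertical axis) of the brightest probe set of each of 9 genes in the 3 control and 3 knockdown arrays (points), with the mean and SD as black bars; every panel spans 1.2 log2 units. The groups do not overlap for 8 genes, 4 higher and 4 lower in knockdown, and overlap for EIF4G2.

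The groups did not overlap for 8 of the 9 genes on these probe sets, 4 in each direction. Among all genes tested, 33.6% had every knockdown array above every control array and 36.7% had every one below, 70.3% in all. Of the 8 called genes, 3 higher and 3 lower ones changed by more than any non-human control did, 0.22 at most. The same held for 25% of all genes in the upward and 25.7% in the downward direction. EIF4E2 and EIF4A2 changed by less than this, and EIF4G1, at -0.222, only just exceeded the limit of 0.221.

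The cap-binding gene EIF4E had log2 signals of 9.73, 9.79 and 9.76 in control and 10.09, 10.17 and 10.09 in knockdown. Every knockdown array lay above every control array. The mean rose from 9.76 ± 0.03 to 10.11 ± 0.05 (SD, n = 3 each), a log2 fold change of 0.36 (SE 0.03) or 1.28-fold (limma, adjusted p = 2.48e-08). The next brightest probe sets rose more, by 0.54 and 0.57. EIF4E has 7 probe sets, of which 3 were called higher and 4 were not called, with -0.10 to 0.02 among the latter. Of these 4, 3 were dim, at 3.40 to 3.94 in control, below 4.635, the lowest mean kept for testing. The fourth was not dim, at 6.97 in control, above the array medians, and changed by -0.07. With the mean of all 7, EIF4E rose by 0.18 (limma, adjusted p = 0.00305). Over all human probe sets, fitted together without a filter, 24.1% were called higher, 24.1% lower and 48.2% in either direction.

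EIF4E2 encodes 4EHP, a relative of eIF4E that binds the cap but takes part in repression of translation. Its signals were 8.86, 8.85 and 8.78 in control and 9.04, 8.96 and 8.96 in knockdown. The knockdown arrays were higher without overlap, but the step was small, with a log2 fold change of 0.16 (SE 0.04, limma adjusted p = 0.00201) and within the range of the non-human controls. Its second probe set rose by 0.19, a dimmer one at 6.07 in control fell by 0.19, and the dimmest was not called, at -0.15. With the mean of its 4 probe sets, EIF4E2 stood at 0.00 and was not called (adjusted p = 0.985).

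EIF4EBP1, the gene of the repressor 4E-BP1, changed most among the 9 on the brightest probe sets. Its signals were 9.81, 9.86 and 9.81 in control and 9.11, 9.01 and 9.04 in knockdown. The smallest gap between the groups was far wider than the spread within either. The mean fell from 9.83 ± 0.03 to 9.05 ± 0.05 (SD, n = 3 each), to 58.5% of the control level (log2 fold change -0.77, SE 0.03, limma adjusted p = 3.67e-12). A larger change in size was found for 9.24% of genes tested. All 3 probe sets were called lower, from -0.77 to -0.71. EIF4EBP1 was the only gene of the 9 with all of its probe sets called in the same direction.

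EIF4EBP2, the gene of the related repressor 4E-BP2, gave opposite answers on different probe sets. On the brightest the signals were 10.14, 10.11 and 10.04 in control and 10.41, 10.40 and 10.40 in knockdown, a rise of 0.31 (SE 0.03, limma adjusted p = 8e-08). On the second they were 10.04, 10.10 and 10.16 in control and 9.44, 9.32 and 9.51 in knockdown, a fall to a log2 fold change of -0.68 (SE 0.05, limma over all human probe sets, adjusted p = 6.85e-09). The groups did not overlap in either case. Of its 5 probe sets, 2 were called higher, at 0.31 and 0.33, and 3 were called lower, at -0.66 to -0.84.

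The brightest and second probe sets of EIF4EBP2 were nearly equal in control and about 1 log2 unit apart in knockdown. The within-array difference between them was 0.10, 0.01 and -0.11 in control and 0.97, 1.09 and 0.89 in knockdown. An exact permutation test, two-sided, gave p = 0.1, the smallest that 3 arrays against 3 can give, and this contrast was chosen after the values were seen. The mean of the 5 probe sets fell, with a log2 fold change of -0.31 (limma, adjusted p = 8.05e-06). Where along the transcript each probe set lies is not given in the sources used here, so the direction of EIF4EBP2 as a whole is not settled by these arrays. Among genes tested with more than 1 probe set, 8.4% had probe sets called in both directions. Of the 9 genes here, 3 did, namely EIF4EBP2, EIF4A2 and EIF4E2. These 9 had 3 to 7 probe sets each, and a gene with more probe sets has more room for opposite calls. A share for genes with as many probe sets was not computed, so 8.4% is not a like background.

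**Figure D2:**
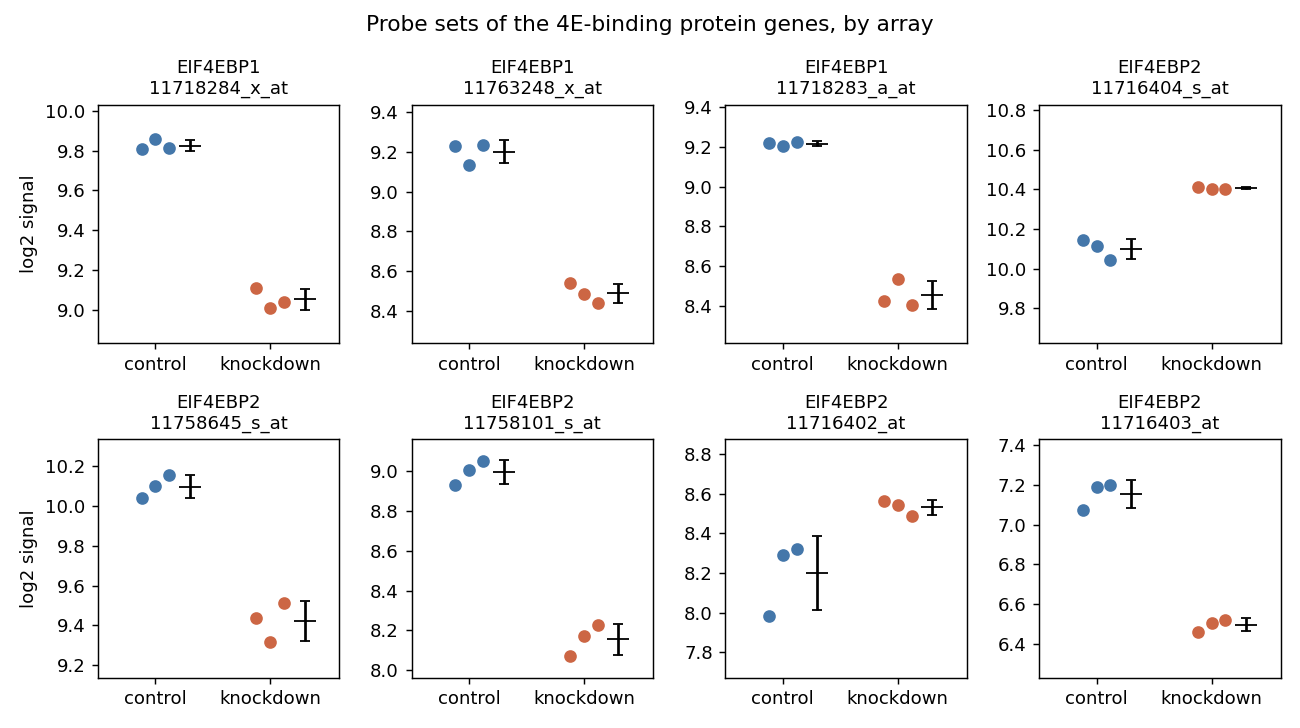
Log2 signal (vertical axis) of the 3 probe sets of EIF4EBP1 and the 5 of EIF4EBP2 in control and knockdown arrays (points), with the mean and SD as black bars; every panel spans 1.2 log2 units. All 3 panels of EIF4EBP1 step down, whereas 2 panels of EIF4EBP2 step up and 3 step down.

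EIF4A1 and EIF4A2 encode the closely related helicases eIF4A1 and eIF4A2. EIF4A1 had signals of 7.65, 7.48 and 7.57 in control and 7.86, 7.91 and 7.998 in knockdown on its brightest probe set with 1 symbol. The groups did not overlap, and the log2 fold change was 0.36 (SE 0.06, limma adjusted p = 2.04e-05). Of its 4 probe sets, 3 were called higher, at 0.20 to 0.63, and 1 was not, at 0.06. Much brighter probe sets are annotated to both EIF4A1 and the read-through gene SENP3-EIF4A1 and were left out by the rule. On these 3, control means were 11.52 to 12.63 and the signal rose by 0.23 to 0.34, all called.

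EIF4A2 had signals of 12.05, 12.05 and 12.04 in control and 11.95, 11.95 and 11.98 in knockdown. The groups were close but did not overlap, with a log2 fold change of -0.09 (SE 0.02, limma adjusted p = 0.000732), within the range of the non-human controls. Its second probe set went the opposite way, from 9.18, 9.34 and 9.26 to 9.68, 9.67 and 9.70, a rise of 0.42 (limma over all human probe sets, adjusted p = 2.89e-07). Of the others, 1 was called higher at 0.23 from a dim 4.74, and 1, at 0.04, was not called. With the mean of its probe sets EIF4A2 rose by 0.15 (limma, adjusted p = 0.00176).

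EIF4B encodes the RNA-binding cofactor that stimulates eIF4A. Its signals were 10.80, 10.81 and 10.74 in control and 10.46, 10.43 and 10.44 in knockdown. The knockdown arrays lay close together and below all controls, with 79.2% of the control level left (log2 fold change -0.34, SE 0.03, limma adjusted p = 5.74e-09). Of its 5 probe sets, 4 were called lower, from -0.53 to -0.34. The exception was the second brightest, at 9.86, 9.99 and 9.94 in control and 9.80, 9.93 and 9.94 in knockdown, where the groups overlapped and the log2 fold change was -0.04 (limma over all human probe sets, adjusted p = 0.489).

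Of the scaffold genes, EIF4G1 had signals of 10.46, 10.38 and 10.34 in control and 10.17, 10.17 and 10.18 in knockdown. The groups did not overlap, and the log2 fold change was -0.22 (SE 0.03, limma adjusted p = 6.23e-06). Of its 3 probe sets, 2 were called lower and 1, at -0.11, was not. EIF4G2 encodes DAP5, a relative of eIF4G that lacks the eIF4E-binding part and serves initiation that does not use eIF4E. Its signals were 11.69, 11.66 and 11.63 in control and 11.68, 11.67 and 11.68 in knockdown, and the groups overlapped. The log2 fold change was 0.02, with a 95% interval of -0.02 to 0.07 (limma, adjusted p = 0.4). None of its 4 probe sets was called, with -0.03 to 0.04 among them.

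**Figure D3:**
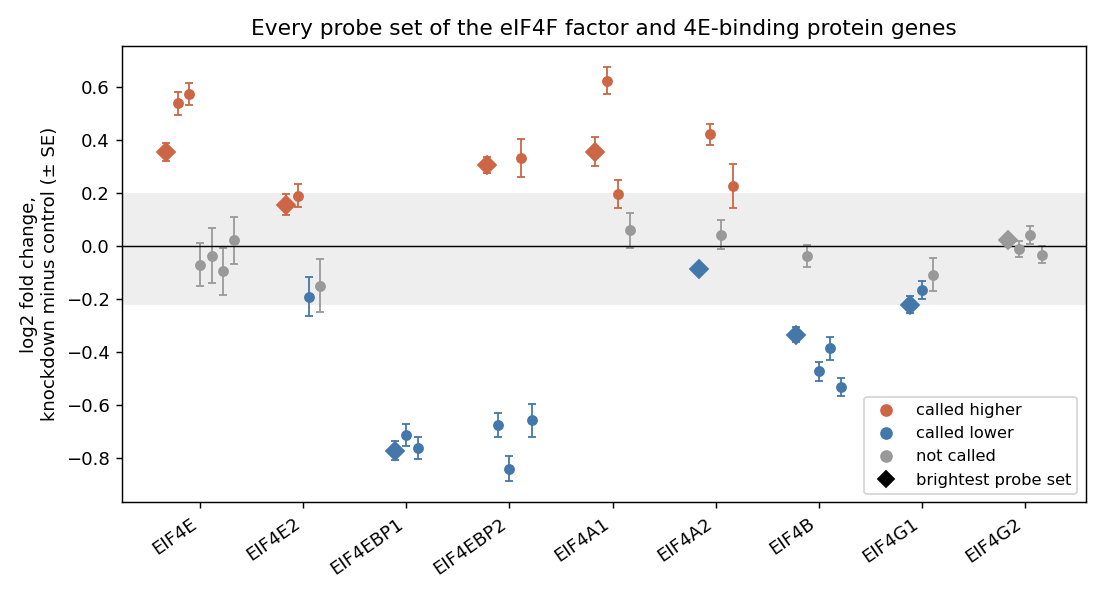
Log2 fold change, knockdown minus control (vertical axis, bars are SE), of all 39 probe sets of the 9 genes, ordered from bright to dim within a gene; diamonds mark the brightest. The grey band is the range of 85 non-human control probe sets, -0.22 to 0.20; 12 probe sets were called higher, 14 lower and 13 were not called.

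Changes were compared within pairs of genes as the within-array difference of their log2 signals. There were 6 such pairs, and a seventh, EIF4G1 with EIF4G3, was not analysed here. EIF4E and EIF4EBP1 moved apart most: the difference of their log2 fold changes was 1.13 (SE 0.05), or 2.19-fold. EIF4EBP1 and EIF4EBP2 differed by -1.08 (SE 0.04), which became -0.44 with the mean of each gene's probe sets. For EIF4A1 against EIF4A2 the difference was 0.44 (SE 0.06), and 0.16 with that mean. EIF4G1 differed from EIF4G2 by -0.24 (SE 0.02), and EIF4E from EIF4E2 by 0.20 (SE 0.06). In each of these 5 pairs the exact permutation test, two-sided, gave p = 0.1, the smallest that 3 against 3 allows, and 0.12 after Benjamini-Hochberg adjustment over the 6. No pair could therefore pass 0.05. EIF4E and EIF4EBP2 differed by 0.05 (SE 0.05, exact permutation p = 0.4), and by 0.49 with the mean of the probe sets.

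The stretches before the gene starts are shown for EIF4E, EIF4G1 and EIF4B because they share a sequence element while the transcripts went in different directions, EIF4E up and the others down. They are the 250 bases upstream of a start in RefSeq, GRCh38.p14, written 5′ to 3′ on the strand of the gene, and CACGTG, the E-box that MYC and related factors bind, is in capitals. For EIF4E it is chr4:98929134-98929383 on the minus strand, for EIF4G1 chr3:184314356-184314605 and for EIF4B chr12:53006206-53006455, both on the plus strand.
EIF4E: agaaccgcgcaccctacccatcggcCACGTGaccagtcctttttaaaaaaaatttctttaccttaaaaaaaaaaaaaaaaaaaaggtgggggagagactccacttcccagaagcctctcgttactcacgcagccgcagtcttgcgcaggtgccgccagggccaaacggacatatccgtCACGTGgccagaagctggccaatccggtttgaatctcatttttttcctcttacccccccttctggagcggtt
EIF4G1: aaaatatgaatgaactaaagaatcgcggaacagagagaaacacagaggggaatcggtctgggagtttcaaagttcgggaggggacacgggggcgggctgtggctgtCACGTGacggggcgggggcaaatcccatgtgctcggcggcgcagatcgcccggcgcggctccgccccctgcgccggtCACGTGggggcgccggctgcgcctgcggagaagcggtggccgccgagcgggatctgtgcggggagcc
EIF4B: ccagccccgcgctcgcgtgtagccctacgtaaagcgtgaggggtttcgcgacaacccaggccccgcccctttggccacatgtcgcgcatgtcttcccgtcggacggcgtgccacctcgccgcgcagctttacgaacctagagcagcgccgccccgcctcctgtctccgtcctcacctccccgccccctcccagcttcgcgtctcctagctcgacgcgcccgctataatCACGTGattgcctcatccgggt
The motif reads the same on both strands. A second motif, CCAAT, was also searched, on both strands, and is not marked here. It was found in 32% of all windows. CACGTG begins 225 and 72 bases before the start of EIF4E, 144 and 67 before that of EIF4G1 and 22 before that of EIF4B. EIF4G1 has 2 further starts in the table without it. The table held 14 windows for 9 of the 10 genes, of which 3 windows contained CACGTG, and among all 34941 windows of this length 6.32% did. A match describes these letters and is not evidence of binding. The window of EIF4EBP1 was not analysed here.

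Other genes of cap-dependent initiation moved in both directions, and the largest changes on the brightest probe sets were at PAIP1, MKNK2 and PDCD4. Of 33 genes listed, 31 were tested: 12 were called higher, 14 lower and 5 were not called, against 32.4% higher, 34.1% lower and 66.5% in either direction among all genes tested. Among those called higher, CYFIP2 passed the filter only through its knockdown arrays. As shares of the 31 genes, both counts lie above those of all genes tested, and this difference was not tested. Their median log2 fold change was -0.06 and their median size 0.36, against -0.03 and 0.23 over all genes. Changes of 2-fold or more were found for these 3 alone. With the mean of each gene's probe sets only PDCD4 kept such a change, at -1.44, while PAIP1 stood at 0.96 and MKNK2 at -0.30.

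PDCD4, an inhibitor that binds eIF4A and keeps it from eIF4G, fell on all 4 of its probe sets. Its signals were 8.13, 8.15 and 7.97 in control and 6.76, 6.76 and 6.70 in knockdown, which left 39.4% of the control level (log2 fold change -1.35, SE 0.06, limma adjusted p = 1.81e-12). The groups were separated by more than 1 log2 unit. MKNK2, one of the kinases that phosphorylate eIF4E, fell from 9.40, 9.33 and 9.32 to 7.99, 7.86 and 7.94 on its brightest probe set (log2 fold change -1.42, SE 0.04, limma adjusted p = 2.68e-14). Of its 5 probe sets, however, 2 were called lower, 1 was called higher at 0.40 and the second brightest, at -0.19, was not called. The related kinase gene MKNK1 rose by 0.24, and 2 of its 4 probe sets were not called.

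Among poly(A)-binding proteins and their partners, 1 of 5 was called higher and 3 lower. The shares among all genes tested were 32.4% higher, 34.1% lower and 66.5% in either direction. With only 5 genes, these counts do not set the group apart. PAIP1, which stimulates initiation together with poly(A)-binding protein, rose from 9.02, 8.82 and 8.77 to 10.27, 10.29 and 10.31 (log2 fold change 1.42, SE 0.05, limma adjusted p = 1.5e-13). All 4 of its probe sets rose, by 0.27 to 1.83, so the size depended on the probe set. PAIP2 and PAIP2B, which displace poly(A)-binding protein from mRNA, had log2 fold changes of -0.54 and -0.93 on their brightest probe sets. The other 4 probe sets of PAIP2 were called lower by less, at -0.16 to -0.23. Of the 3 of PAIP2B, a second was at -0.68 and the dimmest in control, at 0.06, was not called. PABPC1, the main cytoplasmic poly(A)-binding protein, changed by -0.14 on a probe set that may also capture related sequences, and PABPC4, at 0.00, was not called.

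Of 7 other proteins that bind eIF4E, its relative 4EHP or the cap, 6 were called lower and 1 higher. Among all genes tested, 34.1% were called lower and 32.4% higher. The median log2 fold change was -0.36 over the 7 and -0.03 over all genes tested. LARP1, which binds the cap of mRNAs for the translation machinery, changed by -0.49, GIGYF1 by -0.39, CYFIP1 by -0.37 and EIF4ENIF1 by -0.18. GIGYF2, the partner of 4EHP, changed by -0.23 on the brightest of its 7 probe sets and by 0.23 on the next, both called. Its other 5, at 0.00 to 0.18, were not called, so its count as lower rests on 1 probe set. ANGEL1 changed by -0.36 on its brightest probe set, and its second, at -0.09, was not called. CYFIP2 rose by 0.64 from a dim 4.61 in control, below 4.635, the lowest mean kept for testing. It passed the filter only through its knockdown arrays, at a mean of 5.26, so its call as higher carries little weight. Of its 4 probe sets, 3 were called higher and 1, at -0.13, was not called. Of the 5 probe sets of GIGYF1, 2 were not called.

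Of the paralogues of the eIF4F factors, EIF4E3 rose by 0.50 on its brightest probe set, at 6.28 in control. The second brightest, at 0.05, was not called. Of its 5 probe sets, 3 were called higher, at 0.29 to 0.50, and 2 were not called. EIF4A3, the eIF4A relative of the exon junction complex, changed by 0.08. Of the helicase group, EIF4H, which like eIF4B stimulates eIF4A, rose by 0.17 and on its second probe set by 0.45, and the helicase gene DDX3X by 0.24, with all 8 of its probe sets called higher. In the nuclear cap-binding complex, NCBP1 rose by 0.58 and its partner NCBP2 changed by -0.38. A second probe set of NCBP1, at 0.08, was not called.

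Genes of mTORC1, the kinase complex that phosphorylates 4E-binding proteins, and of its S6 kinases were called higher in 4 of 7 cases and lower in 2, against 32.4% and 34.1% of all genes tested. MTOR, the kinase itself, rose from 8.52, 8.51 and 8.44 to 9.30, 9.26 and 9.22 (log2 fold change 0.77, SE 0.04, limma adjusted p = 1.41e-11). Its second probe set rose by 0.59, and the third, dim at 3.94 in control, was not called; the mean of the 3 rose by 0.43. RPTOR, the gene of another mTORC1 subunit, changed by -0.67 from 7.03 in control on its brightest probe set and by -0.23 on the second (limma over all human probe sets, adjusted p = 0.0431), and its other 4 probe sets were not called. The S6 kinase gene RPS6KB1 rose by 0.44 on its brightest probe set. Of its 7 probe sets, 3 were called higher and 4 were not called, among them one at 8.30 in control with -0.006. Phosphorylation and protein levels were not measured on these arrays.

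**Figure D4:**
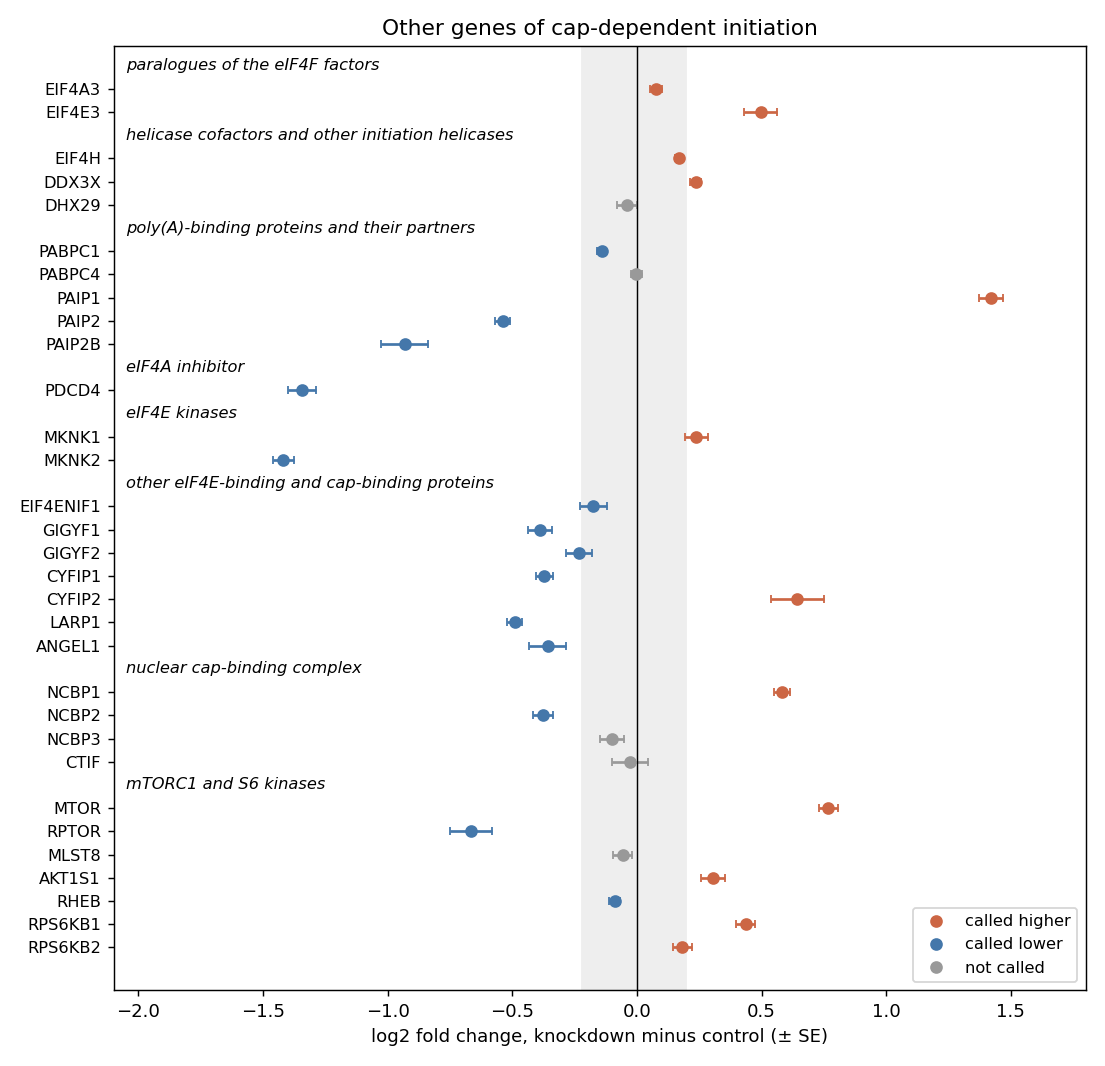
Log2 fold change, knockdown minus control (horizontal axis, bars are SE), of 31 other genes of cap-dependent initiation by role, on the brightest probe set of each. The grey band is the range of non-human control probe sets, -0.22 to 0.20; PDCD4 and MKNK2 lie furthest to the left and PAIP1 furthest to the right.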

How the data were processed

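The deposited table holds 1 log2 signal per probe set and array, for 49395 probe sets. MAS5 is named per the submitters' processing notes, with no version, and how background, summarisation and logs were handled is not given in the sources used here. From their range, 1.95 to 14.1, the deposited values were taken to be on a log2 scale, and no further normalization was applied. A change shared by all genes cannot be seen after such scaling, and without detection calls dim signals cannot be told from absence. Gene names come from the platform annotation, and the 9 genes measured kept their symbols when matched by Entrez ID to RefSeq. A genome build for the array is not given in the sources used here.

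Each gene was represented by its brightest probe set with 1 symbol, the lowest 25% of genes were left out, and groups were compared with limma 3.58.1 in R 4.3.3 (lmFit, eBayes with an intensity trend, Benjamini-Hochberg). Other probe sets and EIF3C come from a fit over all 49293 human probe sets. In simulated data on 13599 genes, changes of 0.25, 0.5 and 1 on the log2 scale were recovered in 50.2%, 89.9% and 99.7% of cases. These rates describe the simulated data and are not the share of real changes found here. In the deposited data smaller changes were called, such as 0.16 for EIF4E2. The genes, the pathway list, the pairs and the other settings were chosen with earlier results of these data known. By rule the text names every eIF4F and 4E-binding gene, the called gene with the largest change in each role of the pathway list and those at 2-fold or more. The remaining pathway genes were named after their values were seen.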

Additional observations from a re-analysis of the deposited data

How the results depend on the processing

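Among the eIF4F and 4E-binding genes and the pathway genes named by rule, calls in the limma fits changed with the choice of probe set. Without the intensity trend these calls held, but limma adjusted p rose to 2.77e-06 for EIF4EBP1 and 0.0469 for EIF4A2. The very small p-values thus depend on that setting. Of the pathway genes, 11 were then called higher and 13 lower. With quantile normalization these counts were 12 and 16. With the lowest 50% of genes left out, EIF4E3 and CYFIP2 were not tested, and 10 pathway genes were called higher and 13 lower. When a call also had to exceed the largest difference of the non-human controls, an alternative chosen after the data were seen, EIF4E2 and EIF4A2 were lost, leaving 3 of the 9 genes higher and 3 lower, and 9 pathway genes higher and 11 lower. When probe sets of a gene were averaged, EIF4EBP2 turned to -0.31 and EIF4A2 to 0.15, and EIF4E2 stood at 0.00. With the second brightest probe set, an alternative chosen after the data were seen, EIF4EBP2 stood at -0.68, EIF4A2 at 0.42, EIF4G2 at -0.012 (not called in either case), EIF4B at -0.04, MKNK2 at -0.19, EIF4E3 at 0.05 and NCBP1 at 0.08. The last 4 were no longer called. The mean of probe sets also moved the pair differences to 0.16 for EIF4A1 and EIF4A2, -0.17 for EIF4G1 and EIF4G2, -0.44 for EIF4EBP1 and EIF4EBP2, 0.93 for EIF4E and EIF4EBP1 and 0.49 for EIF4E and EIF4EBP2. EIF4E, EIF4EBP1, EIF4A1 and EIF4G1 kept direction and call under all 16 alternatives, with ranges of 0.18 to 0.54, -0.83 to -0.71, 0.31 to 0.63 and -0.27 to -0.17.

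Leaving out single arrays gave 4 of the 9 genes higher and 4 lower each time, and 12 pathway genes higher and 13 to 14 lower. Over all alternatives the counts were 3 to 4, 3 to 4, 9 to 12 and 10 to 16. Same-numbered replicates deviated together weakly (correlations 0.0765, 0.129 and 0.227), against 0.105 at best for other numbers. The labels do not say whether arrays with the same number were handled together, and the main fit did not take numbers as pairs. With the replicate block, 4 of the 9 genes were higher and 4 lower, and 12 and 14 pathway genes.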

Other observations

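Several eIF4F genes host small nucleolar RNAs, and some probe sets carry both symbols. The probe set of EIF4A1 and SNORD10 stood at 6.41 in control and 0.13 higher in knockdown, and was not called (limma over all human probe sets, adjusted p = 0.137). The 4 probe sets of EIF4A2 with SNORA4 or SNORA63 had log2 fold changes from -0.07 to 0.16, and the brightest of them was at 7.72 in control. The 2 of EIF4G2 with SNORD97 were dim, at 2.84 and 2.68. None of these was called. The only probe set of EIF4EBP3, the third 4E-binding protein gene, is shared with the read-through gene ANKHD1-EIF4EBP3 and fell from 6.27 ± 0.08 to 5.89 ± 0.08 (SD, n = 3 each; limma, adjusted p = 0.000684).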
